A study of Mus musculus with 8 samples.

Results

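Myelinating glia and axons attach to each other at the paranode, and glial cells couple to each other through gap junctions. The 9 genes examined here encode proteins of these contacts: the contactins *Cntn1* and *Cntn2*, the Caspr gene *Cntnap1* and neurofascin (*Nfasc*), the ankyrins *Ank2* and *Ank3*, the protein 4.1 family gene *Epb4.1l3*, and the connexins *Gjb1* and *Gjc3*. They were picked by symbol as a set of known paranodal and gap junction genes, and all 9 were found once each among the 23427 genes of the table. The study followed primary mouse OPCs over 4 days of differentiation, with libraries from Day 0, Day 1, Day 2 and Day 3 and 2 replicates a day. Wild-type C57BL/6J OPCs were isolated from the cortices of 3 pooled pups at postnatal day 7 by immunopanning with a PDGFRα antibody. Differentiation was started by taking away growth factors and giving T3 (40 ng/mL), and day numbers run from that point. The 75-nt paired-end, stranded libraries were made from mRNA. The study calls the replicates independent, and its labels do not say whether libraries with the same replicate number came from a single isolation.

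In myelinated nerve, contactin-1 and Caspr sit together on the axon and bind a glial isoform of neurofascin at the paranode, while contactin-2 lies next to it at the juxtaparanode and is made by both neurons and glia. Ankyrins tie membrane proteins to the spectrin skeleton, and protein 4.1B, the product of *Epb4.1l3*, links Caspr to it. The connexins of *Gjb1* and *Gjc3* form channels of myelinating cells, and *Gja1* encodes the main astrocyte connexin.

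Values are given as mRNA expression (FPKM), fragments scaled for transcript length and mapped total, first for replicate 1 and then for replicate 2. Fold changes are differences of mean log2(FPKM + 1), with the standard error (SE) and the limma p adjusted over the 12208 genes tested, and a gene is called at an adjusted p under 0.05. Values written as 16.6-fold and the like are ratios of mean FPKM, without the added 1. FPKM sums over all isoforms of a gene, so glial and neuronal *Nfasc* isoforms were not told apart. The spacing of low FPKM values gave a depth of 956000 to 1530000 fragments a library. At that depth 1 fragment was worth 0.0684 to 0.109 FPKM for *Cntn2* and 0.436 to 0.698 FPKM for *Gjb1*.

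The summed OPC and OL markers followed the labelled course. The 5 OPC markers summed to 947 and 963 FPKM on Day 0, 456 and 401 at Day 1, 311 and 209.8 at Day 2, and 209 and 114 at Day 3. All 5 were called lower on Day 3 than on Day 0 (limma, adjusted p under 0.05): *Cspg4* (log2 fold change −4.96), *Pdgfra* (−4.87; from 490.3 and 395.9 to 29.2 and 6.53 FPKM), *Ptprz1* (−2.60), *C1ql1* (−1.50) and *Lhfpl3* (−0.96). *Lhfpl3* was the most abundant on average over the days, and *Pdgfra* on Day 0. Unlike the sum, *Lhfpl3* was higher on Day 1 (231 and 275 FPKM) than on Day 0 (165 and 198). It was at 220 and 160 FPKM on Day 2 and 128 and 66.6 on Day 3. *C1ql1* lost the call in 12 of 17 alternatives and *Lhfpl3* in 8, both of them after same-sum and median ratio scaling and without either Day 0 library or Day 3 replicate 2 (highest adjusted p 0.242 and 0.163, limma). The 5 OL markers summed to 549 and 508 FPKM on Day 0, 1508 and 2029 at Day 1, 6052 and 9672 at Day 2, and 12374 and 17214 at Day 3. All 5 were called higher under every scaling: *Mobp* (8.39), *Mbp* (7.11), *Mag* (7.08), *Mog* (5.73) and *Cnp* (2.22). *Mbp* was the most abundant on average and in all libraries of Days 2 and 3, while *Cnp* was above it on Days 0 and 1. *Mbp* had 65.2 and 82.2 FPKM on Day 0 and 8753 and 11945 at Day 3. Since this is bulk RNA, fewer cells of a type and less RNA per cell cannot be told apart.

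Markers of other cells were also present. The 7 astrocyte markers summed to 121 and 356 FPKM on Day 0, 173 and 523 at Day 1, 133 and 628 at Day 2, and 149.5 and 912 at Day 3, higher in replicate 2 on each day. *Gfap* was the most abundant on average and in replicate 2, and *Aldoc* in all replicate 1 libraries. Between Day 0 and Day 3 limma called 0 of them higher and 0 lower, and *Gfap* and *Aqp4* higher with the replicate term. The 10 neuron markers summed to 70.6 and 39.4 FPKM on Day 0, 82.2 and 41.7 at Day 1, 132 and 61.4 at Day 2, and 233 and 117 at Day 3. This sum was mostly *Tubb3* (60.2 and 20.8 FPKM on Day 0, 231 and 113 at Day 3), so its course is that of 1 gene, and no other neuron marker passed 8.46 FPKM in any library. *Tubb3* was called higher on Day 3 (2.15, adjusted p 0.0206, limma; highest 0.146, without Day 0 replicate 2 or Day 3 replicate 1 not called), and *Gad1* and *Gad2* were at 0 throughout. Of the 5 neuron markers tested 2 were called lower (26.3% of all genes), *Nefm* (−1.74, adjusted p 0.00619, limma) and *Nefl* (−1.11, 0.0473). *Nefl* lost the call in 12 of 16 alternatives, among them the 3 other scalings, and *Snap25* was also called lower with the replicate term. Microglial markers summed to at most 2.51 FPKM, with 6 of 7 at 0 in all libraries (*Aif1*, *Csf1r*, *C1qa*, *C1qb*, *Tmem119* and *Cx3cr1*) and *P2ry12* the highest. Endothelial markers reached 3.31 FPKM (highest *Kdr*; *Cldn5* and *Cdh5* at 0), mural markers 2.20 (highest *Acta2*; *Rgs5* at 0) and Schwann cell markers 4.72 (highest *Egr2*).

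The members differed widely in level before differentiation began. On Day 0, mean FPKM (± SD, n = 2) was 400.2 ± 26.8 for *Cntn1*, 108 ± 76.6 for *Gjc3*, 52.3 ± 2.27 for *Nfasc*, 44.7 ± 7.65 for *Ank2* and 18.5 ± 1.91 for *Ank3*. *Epb4.1l3* (12.7 ± 1.11), *Gjb1* (4.09 ± 0.385), *Cntnap1* (1.67 ± 1.07) and *Cntn2* (0.231) followed, and no neighbours in this order had overlapping replicates. By Day 3 the order had changed at the top: *Nfasc* came first (869.9 ± 85.3, at percentile 99.8 of the genes tested), then *Gjc3* (241 ± 80.5) and *Cntn1* (196 ± 11.3), whose replicates overlapped. *Ank3* (66.9 ± 12.5) stood above *Ank2* (45.5 ± 1.27), followed by *Gjb1* (9.96 ± 3.68) and *Epb4.1l3* (4.86 ± 0.787), with *Cntn2* (0.308) and *Cntnap1* (0.171) near 0.

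**Figure D1:**
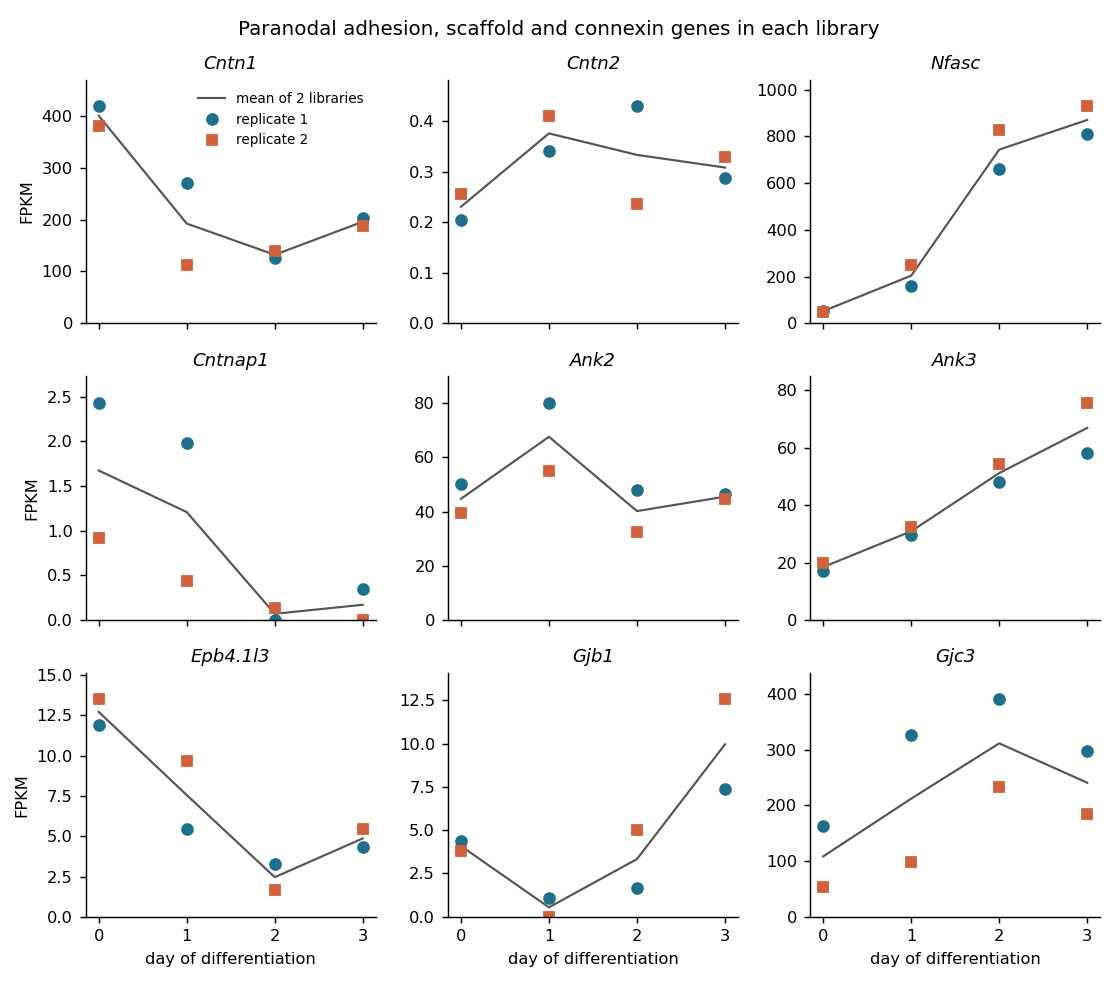
mRNA expression (FPKM) of the 9 genes on each day of differentiation. Points are the libraries of replicates 1 and 2, and lines join the means of the 2 replicates.

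A gene was tested if at least 2 libraries had an FPKM of 1 or more, which held for 8 of the 9 members and not for *Cntn2*. Between Day 0 and Day 3, 2 of the 8 were called higher (*Nfasc* and *Ank3*; 11.96% of all genes tested) and 2 lower (*Cntn1* and *Epb4.1l3*; 26.3% of all genes). With the replicate number in the limma model 3 were called higher (13.2% of all genes), *Gjc3* being added. Their median log2 fold change was 0.55, beside −0.31 for all genes tested. That all-gene shift depended on scaling: 31.3% of the called genes were higher with the deposited values, 40.8% after rescaling to the same sum, 51.1% after median ratio scaling and 48.5% after quantile normalization. Changes between Day 0 and Day 3 are therefore also given relative to the all-gene median.

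Calls became fewer from step to step, for the members as for all genes. Between Day 0 and Day 1, 2 members were called higher (*Nfasc* and *Ank3*; 5.04% of all genes) and 0 lower by limma (7.56% of all genes), with 2 lower at an unadjusted p under 0.05. All-gene shares are given for adjusted p only. This count and the later counts at an unadjusted p are therefore not compared with all genes. The replicate term gave 3 higher (6.09% of all genes) and 2 lower (9.01%). Between Day 1 and Day 2, *Nfasc* was the 1 member called higher (2.16% of all genes) and limma called 0 lower (1.73%), with 2 lower at an unadjusted p under 0.05. The replicate term gave 2 higher (3.01% of all genes) and 1 lower (3.57%). Between Day 2 and Day 3 limma called 0 members higher (0.246% of all genes) and 0 lower (0.0491%), and 2 and 0 had an unadjusted p under 0.05. The member medians for these steps were 0.13, 0.15 and 0.30, beside −0.07, −0.19 and −0.02 for all genes. By the limma F test over the 4 days 5 members changed (35.2% of all genes; *Nfasc*, *Ank3*, *Cntn1*, *Epb4.1l3* and *Gjb1*), and 7 with the replicate term (41.0%), with *Ank2* and *Gjc3* added.

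The share of higher genes among those called also moved with scaling in the steps to Day 1 and to Day 2. Between Day 0 and Day 1 it was 39.99% with the deposited values and 50.1% after quantile normalization. Between Day 1 and Day 2 it was 55.6% with the deposited values, 78.3% after median ratio scaling and 69.3% after quantile normalization. The step from Day 2 to Day 3 moved little, with 83.3% for the deposited values, 86.0% after same-sum scaling and 82.1% after quantile normalization.

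**Figure D2:**
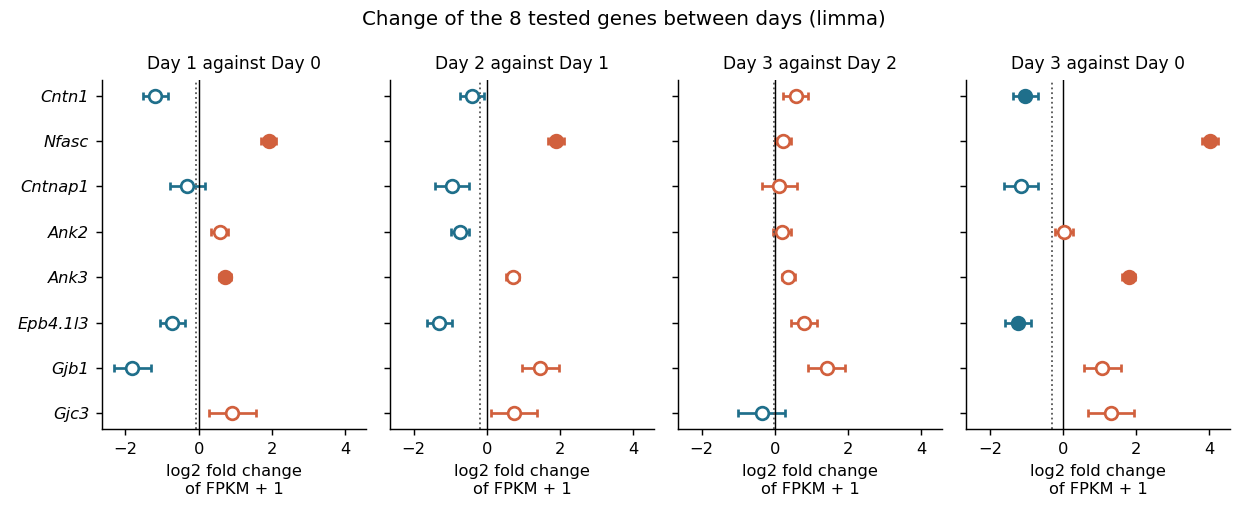
Log2 fold changes of the 8 tested members in 4 comparisons of days, with bars of 1 SE. Filled points are called at a limma adjusted p under 0.05, and the dotted line is the median of all genes tested.

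Neurofascin, the glial partner at the paranode, had the largest rise among the members. *Nfasc* mRNA expression (FPKM) was 53.9 and 50.7 at Day 0, 159 and 249 at Day 1, 658 and 828 at Day 2, and 809.7 and 930.2 at Day 3. Values were low on Day 0, intermediate on Day 1 and high on the later days, with no overlap between Days 0, 1 and 2, while those of Days 2 and 3 overlapped. The rise from Day 0 to Day 3 was 16.6-fold (log2 fold change 4.03, SE 0.22, adjusted p 4.78e-05, limma), 4.34 above the all-gene median, and was called under every alternative. Ordered from the largest rise to the largest fall, it came 45 among the 12208 genes tested.

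The rise was spread over the steps to Day 1 and Day 2. *Nfasc* rose 3.90-fold from Day 0 to Day 1 (log2 fold change 1.91, SE 0.22, adjusted p 0.00138, limma) and 3.64-fold from Day 1 to Day 2 (1.89, adjusted p 0.00718). The second step lost its call in a fit of the compared days only (adjusted p 0.116, limma) and without Day 2 replicate 2 (0.0871). Between Day 2 and Day 3 the change was 0.23 (adjusted p 0.691, limma). On the log2 scale *Nfasc* had made 47.4% of its rise by Day 1 (39.6% and 54.6% in the replicates) and 94.2% by Day 2, and on the FPKM scale 18.5% and 84.5%. The log2 shares were 35.6% and 84.2% for *Mbp*, 43.7% and 81.1% for *Mag*, and 65.8% and 106% for *Cnp*. Shares were not computed for *Mobp* and *Mog*, which both still rose after Day 2. *Mobp* went from 35.3 and 99.1 FPKM on Day 2 to 432 and 1227 on Day 3, and *Mog* from 41.8 and 38.7 to 114 and 146. *Nfasc* and the summed OL markers both rose to Day 2, and the sum rose much further to Day 3. *Cnp* did not, with 2072 and 2459 FPKM on Day 2 and 1962 and 2160 on Day 3. Whether *Nfasc* followed the OL markers was not tested.

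Contactin-1, in nerve a partner of Caspr on the axon, was the most abundant member in OPCs. *Cntn1* mRNA expression (FPKM) was 419 and 381 at Day 0, 271 and 113 at Day 1, 125 and 139 at Day 2, and 204 and 188 at Day 3. Day 0 was above every later library, and the wide pair of Day 1 overlapped both Day 2 and Day 3. *Cntn1* was 2.04-fold higher on Day 0 than on Day 3 (log2 fold change −1.03, SE 0.33, adjusted p 0.0399, limma), −0.71 relative to the all-gene median. This call was lost with all 3 other scalings (same sum −0.87, adjusted p 0.0696; median ratio −0.71, 0.128; quantile −0.69, 0.148; limma). It was lost with no filter (0.0686) and without the variance trend (0.0761), and also without any 1 library of Day 0, Day 2 or Day 3, where the limma adjusted p was 0.0611 to 0.165, and over all alternatives it spanned 0.00104 to 0.165.

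From Day 0 to Day 1 *Cntn1* changed by −1.18 (SE 0.33, adjusted p 0.0528, limma; 0.0273 with the replicate term). Without Day 1 replicate 1 this was −1.81 and called (adjusted p 0.00141, limma), and without Day 1 replicate 2 it was −0.56 (0.0916). The replicates fell at different steps, with −0.63 to Day 1 and −1.11 to Day 2 in replicate 1, and −1.74 and 0.29 in replicate 2. From Day 1 to Day 2 the change was −0.41 (adjusted p 0.506, limma), 0.22 without Day 1 replicate 1, and −1.03 and called without Day 1 replicate 2 (0.0301). The last step was 0.56 (adjusted p 0.491, limma). Over the 4 days *Cntn1* changed by the limma F test (adjusted p 0.0266), with adjusted p of 0.0525 after median ratio scaling, 0.0621 after quantile normalization, 0.0541 with no filter and 0.0644 without the variance trend. Without Day 0 replicate 1, Day 0 replicate 2, Day 2 replicate 1, Day 2 replicate 2 or Day 3 replicate 2 it was 0.161, 0.131, 0.0749, 0.0662 and 0.0538 (limma F test). *Cntn1* and the summed OPC markers both fell, and whether one followed the other was not tested.

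*Cntn2*, which in nerve marks the juxtaparanode, was near the lower limit of detection in all libraries. Its mRNA expression (FPKM) was 0.205 and 0.256 at Day 0, 0.342 and 0.41 at Day 1, 0.431 and 0.236 at Day 2, and 0.288 and 0.328 at Day 3. All libraries were low, and the days were not told apart. The values amount to 3 to 5 fragments a library by their spacing, with 3 in every Day 0 and Day 3 library, or 2.30 to 3.84 at the longest annotated transcript. With no filter the change between Day 0 and Day 3 was 0.09 (SE 0.17, adjusted p 0.739 among 15267 genes, limma). *Cntn2* and *Nfasc* are neighbours on chromosome 1, at chr1:132509427-132543256 and chr1:132564690-132741797 (GRCm38, both on the minus strand), and their exons do not overlap. One was near the detection limit while the other was among the most abundant transcripts of Day 3.

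*Cntnap1*, the gene of Caspr, was low throughout. It passed the filter through 2 libraries only, replicate 1 of Day 0 and of Day 1. Its mRNA expression (FPKM) was 2.43 and 0.912 at Day 0, 1.98 and 0.438 at Day 1, 0 and 0.140 at Day 2, and 0.342 and 0 at Day 3. Day 0 and Day 1 overlapped, Day 2 and Day 3 overlapped, and both early days stood above both later ones. In fragments these were 20 and 6, 13 and 3, 0 and 1, and 2 and 0, so the later days were under the floor of 3 fragments. The log2 fold change between Day 0 and Day 3 was −1.15 (SE 0.47, adjusted p 0.0884, limma), −0.83 relative to the all-gene median and not called. With a pseudocount of 0.1 in place of 1 it was −2.93, and without Day 0 replicate 1 it was −0.72. Its exons share 233 bases with *Plekhh3* on the other strand.

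The *Nfasc* to *Cntn1* ratio was below 1 on Day 0 and above 1 on Days 2 and 3. It was 0.129 and 0.133 at Day 0, 0.585 and 2.20 at Day 1, 5.25 and 5.95 at Day 2, and 3.97 and 4.95 at Day 3. *Cntn1* was the more abundant in both Day 0 libraries and *Nfasc* in both libraries of Days 2 and 3, while the Day 1 replicates lay on either side of 1. *Cntnap1* and *Nfasc* had slopes of log2(FPKM + 1) per day of −0.44 and 1.40. Their difference of −1.84 per day had an exact two-sided permutation p of 0.00238 (adjusted over 4 slope tests, 0.00952). Within replicate numbers p was 0.00694 (adjusted 0.0139). Most of this difference is the slope of *Nfasc*, and it does not establish a course for *Cntnap1*, which was at few fragments. *Cntn2* minus *Cntn1* had a slope of 0.37 (exact two-sided p 0.144, adjusted 0.193), from 0.02 for *Cntn2* and −0.35 for *Cntn1*. With a library left out the slope of this difference was 0.24 to 0.50.

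**Figure D3:**
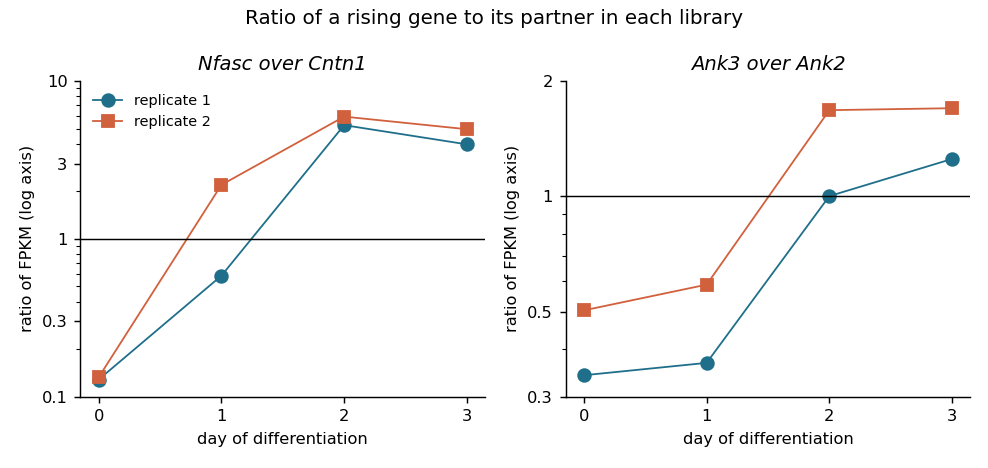
Ratios of *Nfasc* to *Cntn1* and of *Ank3* to *Ank2* in each library, on a log axis. Both were higher on Day 3 than on Day 0, and points mark replicates 1 and 2.

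Relatives of the contactins and Caspr were low or absent. Of 10 such genes 4 were at 0 in all libraries and 3 could be tested, with a median log2 fold change of 0.69 between Day 0 and Day 3 (all genes −0.31). *Cntn3* was called higher (1.34, SE 0.32, adjusted p 0.0116, limma; 1.65 relative to the all-gene median). It lost the call without Day 0 replicate 2 or without Day 3 replicate 1 (highest adjusted p 0.0725, limma).

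Genes of the node, juxtaparanode and internode were more widely expressed, and these proteins cluster channels or join axon and myelin along its length. Of 22 listed, 18 were tested and 1 was at 0 in all libraries. From Day 0 to Day 3, 8 were called higher and 2 lower (limma, adjusted p under 0.05; 11.96% and 26.3% of all genes), with a median of 0.45. After median ratio scaling 8 were higher and 1 lower, since *Dlg4* lost its call. The lower count was also 1 without either Day 0 library or without Day 3 replicate 2, and 3 with no filter, with the filter at 10 FPKM or without the variance trend. Without Day 0 replicate 1 the higher count was 6. The largest changes were those of *Lgi3* (3.45, adjusted p 7.75e-05), *Kcna1* (2.60, 0.00172), *Dlg1* (2.30, 5.49e-05) and *Chl1* (−1.78, 0.000744; limma), and all 4 kept their call in 17 alternatives. *Lgi3*, which encodes a secreted protein, went from 6.15 and 7.69 FPKM to 85.9 and 84.7. Between Day 0 and Day 1, 7 of these genes were called higher and 1 lower (5.04% and 7.56% of all genes; 8 and 1 with the replicate term). Between Day 1 and Day 2, 1 and 0 were called by limma (2.16% and 1.73% of all genes; 4 and 0 with the replicate term).

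Ankyrins anchor neurofascins and channels to the spectrin skeleton, and the 2 ankyrin members took different courses. *Ank3* mRNA expression (FPKM) was 17.1 and 19.8 at Day 0, 29.5 and 32.3 at Day 1, 48.1 and 54.3 at Day 2, and 58.1 and 75.8 at Day 3. It rose step by step from low to high, and no 2 days overlapped. The rise from Day 0 to Day 3 was 3.62-fold (log2 fold change 1.79, SE 0.17, adjusted p 1.98e-04, limma), 2.11 above the all-gene median, and called under every alternative. In the same order of rises *Ank3* came 449 among the genes tested.

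From Day 0 to Day 1 *Ank3* rose 1.67-fold (log2 fold change 0.72, SE 0.17, adjusted p 0.0306, limma). This step lost its call without any 1 of the Day 0 and Day 1 libraries (adjusted p 0.0727 to 0.180, limma), in a fit of those days only (0.0583) and without the variance trend (0.0765). The next step was 0.71 (adjusted p 0.0640, limma; 0.0282 with the replicate term and 0.0427 after median ratio scaling), and the last 0.37 (0.377). By Day 1 *Ank3* had made 39.9% of its log2 rise and by Day 2 79.4%, and on the FPKM scale 25.7% and 67.5%.

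*Ank2* changed little. Its mRNA expression (FPKM) was 50.1 and 39.3 at Day 0, 80.2 and 55.0 at Day 1, 48.0 and 32.3 at Day 2, and 46.4 and 44.6 at Day 3. Day 1 was the highest day and above all other libraries, and the other 3 days overlapped. The log2 fold change between Day 0 and Day 3 was 0.03 (SE 0.24, adjusted p 0.923, limma), 0.35 relative to the all-gene median. The rise to Day 1 (0.57, adjusted p 0.174) and the fall to Day 2 (−0.74, adjusted p 0.128) were not called by limma, and with the replicate term the fall was (adjusted p 0.0360). By the limma F test over the 4 days *Ank2* had an adjusted p of 0.131, and 0.0275 with the replicate term. Its exons overlap those of the antisense gene *Gm16958* by 182 bases.

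The ankyrin ratio rose accordingly. *Ank3* to *Ank2* was 0.341 and 0.504 at Day 0, 0.368 and 0.589 at Day 1, 1.00 and 1.68 at Day 2, and 1.25 and 1.70 at Day 3. *Ank2* was the more abundant on Days 0 and 1, *Ank3* on Day 3, and on Day 2 *Ank3* was higher in replicate 2 and the ratio was near 1 in replicate 1. The slope of *Ank3* minus *Ank2* was 0.67 per day (0.61 and −0.06 alone), with an exact two-sided p of 0.00873 (adjusted over 4, 0.0175). Within replicate numbers p was 0.00347, the smallest possible there (adjusted 0.0139). Without Day 0 replicate 1 or Day 3 replicate 2 the slope was 0.64 and 0.65, each with an adjusted p of 0.0540.

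*Epb4.1l3*, whose product links Caspr to the skeleton, fell. Its mRNA expression (FPKM) was 11.9 and 13.5 at Day 0, 5.44 and 9.67 at Day 1, 3.25 and 1.67 at Day 2, and 4.31 and 5.42 at Day 3. Day 0 was above all later libraries and Day 2 below all others, while Day 3 lay just under Day 1. *Epb4.1l3* was 2.61-fold higher on Day 0 than on Day 3 (log2 fold change −1.23, SE 0.34, adjusted p 0.0231, limma), −0.92 relative to the all-gene median. The call was lost after median ratio scaling (−0.95, adjusted p 0.0663, limma) and quantile normalization (−0.88, 0.0831). It was also lost without Day 0 replicate 1 (0.0869), Day 0 replicate 2 (0.123), Day 3 replicate 1 (0.0939) or Day 3 replicate 2 (0.0568). The single steps were −0.72, −1.30 and 0.79 (adjusted p 0.223, 0.0775 and 0.341, limma), so the lowest level was on Day 2. The limma F test gave an adjusted p of 0.0113, and 0.0620 and 0.0740 without Day 0 replicate 1 or 2.

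Around these scaffold members, genes of the wider skeleton were called in both directions. Of 15 ankyrin, spectrin, adducin and protein 4.1 genes 14 were in the table, 4 spectrins among them under older symbols, and 12 were tested. From Day 0 to Day 3, 5 were called higher and 4 lower (limma, adjusted p under 0.05; 11.96% and 26.3% of all genes), and with the replicate term 5 and 5. The median of the list was −0.32, near that of all genes (−0.31). After median ratio scaling or quantile normalization 5 were higher and 3 lower. The lower count was 2 without either Day 0 library or without Day 3 replicate 1. *Epb4.1* (−3.19, adjusted p 2.28e-04, limma), *Add2* (−2.67, 0.00168), *Epb4.1l4a* (2.16, 0.00167) and *Add1* (2.04, 6.36e-05) changed most among them. *Epb4.1*, *Add2* and *Add1* kept their call in every alternative. *Epb4.1l4a* kept it where it had a value, and had none with the filter at 10 FPKM. *Epb4.1l4a* was at 0.34 and 0.21 FPKM on Day 0 and passed the filter only through later days. Its call, 1 of the 5 higher, therefore partly restates how it was selected and lends no support. Its log2 fold change spanned 2.09 to 3.70 over the alternatives. Between Day 0 and Day 1 limma called 3 higher and 1 lower (5.04% and 7.56% of all genes; 3 and 2 with the replicate term). Between Day 1 and Day 2 it called 3 and 0 (2.16% and 1.73%; 3 and 1 with the replicate term), and between Day 2 and Day 3, 1 and 0 (0.246% and 0.0491%).

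The connexin members sit in compact genes, and the 250 bases upstream of a start of each are shown with matches to known motifs. Both sequences are read on the gene's own strand in GRCm38.p6 from RefSeq annotation. In *Gjb1* capitals mark the SOX-type motif ACAAAG, the related ACAATG read on the other strand (CATTGT) and the TATA motif TATAAA. On either strand these were found in 16.5%, 10.7% and 12.4% of 32851 promoters, and the *Gjc3* sequence, its only annotated window, holds none of them. *Gjb1* has 4 such windows, and the one shown was picked as the only one with all 3 motifs. Its contrast with *Gjc3* follows from that pick, and the shares above are for single promoters, not for a pick among 4. Another holds ACAAAG alone and 2 hold none. G and C made up 58.4% of the *Gjb1* and 48.8% of the *Gjc3* sequence (median of all promoters 52.4%). A motif match is a description, and binding was not tested.

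Gjb1 promoter, chrX:101383482-101383731, plus strand: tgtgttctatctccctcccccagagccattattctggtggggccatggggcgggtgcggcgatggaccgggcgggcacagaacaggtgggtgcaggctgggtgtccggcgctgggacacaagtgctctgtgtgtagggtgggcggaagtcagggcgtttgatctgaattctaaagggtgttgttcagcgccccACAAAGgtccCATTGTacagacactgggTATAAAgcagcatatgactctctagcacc

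Gjc3 promoter, chr5:137963099-137963348, minus strand: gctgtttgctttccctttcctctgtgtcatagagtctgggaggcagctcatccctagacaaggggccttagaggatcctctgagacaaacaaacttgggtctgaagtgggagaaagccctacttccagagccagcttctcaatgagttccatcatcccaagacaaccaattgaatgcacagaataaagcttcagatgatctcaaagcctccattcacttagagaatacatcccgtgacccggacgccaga

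*Gjb1*, the connexin of channels between myelin layers, had its lowest values on Day 1 and its highest on Day 3. Its mRNA expression (FPKM) was 4.36 and 3.81 at Day 0, 1.09 and 0 at Day 1, 1.65 and 5.02 at Day 2, and 7.35 and 12.6 at Day 3. Day 1 was low and below all other libraries, Day 3 was high and above them, and Days 0 and 2 overlapped. In fragments these were 10 and 7, 2 and 0, 3 and 10, and 12 and 18, so Day 1 was under the floor of 3. From Day 0 to Day 3 *Gjb1* rose 2.44-fold (log2 fold change 1.07, SE 0.50, adjusted p 0.129, limma), 1.38 relative to the all-gene median, and was not called. Only quantile normalization called it (1.53, adjusted p 0.0473, limma).

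The fall of *Gjb1* to Day 1 was −1.81 (SE 0.50, adjusted p 0.0518, limma; 0.0453 with the replicate term), and it ran from −3.60 with a pseudocount of 0.1 to −1.28 without Day 1 replicate 2 (adjusted p 0.253, limma). It was called without Day 1 replicate 1 (adjusted p 0.0436, limma), Day 2 replicate 1 (0.0429) or Day 2 replicate 2 (0.0443). The rises to Day 2 (1.47, adjusted p 0.142) and to Day 3 (1.41, 0.246) were not called by limma. Over the 4 days *Gjb1* changed by the limma F test (adjusted p 0.0141). Without Day 0 replicate 1, Day 0 replicate 2, Day 1 replicate 2 or Day 3 replicate 2 the adjusted p was 0.0504, 0.0501, 0.0536 and 0.0566.

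*Gjc3* was the second most abundant member on Day 0 and Day 3. Its mRNA expression (FPKM) was 163 and 54.3 at Day 0, 326 and 97.9 at Day 1, 391 and 232 at Day 2, and 298 and 184 at Day 3. Every day held a high replicate 1 and a low replicate 2, and days overlapped except that Days 2 and 3 lay above Day 0. The rise from Day 0 to Day 3 was 2.22-fold (log2 fold change 1.30, SE 0.64, adjusted p 0.139, limma), 1.62 relative to the all-gene median. It was 2.09 without Day 0 replicate 1 and 0.52 without Day 0 replicate 2. With the replicate number in the model the SE fell to 0.26 and *Gjc3* was called (adjusted p 0.00443, limma). The same held for the first step (0.92 from Day 0 to Day 1, and 0.06 to 1.78 with a library left out; adjusted p 0.410, and 0.0465 with the replicate term) and for the limma F test over the 4 days (0.210; 0.00527 with the replicate term). Between Day 2 and Day 3 it changed by −0.36 (adjusted p 0.852, limma).

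*Gjb1* and *Gjc3* each had a slope of 0.47 per day, though *Gjb1* had its lowest values on Day 1. The slope of their difference was 0.00052 (exact two-sided p 0.998, adjusted 0.998), its sign changed with same-sum and median ratio scaling, and it was 0.21 with a pseudocount of 0.1. *Gjc3* exceeded *Gjb1* 37.3- and 14.2-fold on Day 0, 46.3-fold in replicate 2 of Day 2, and 40.5- and 14.6-fold on Day 3. On Day 1 and in replicate 1 of Day 2 *Gjb1* was at 3 fragments or fewer, so no fold is given. *Gjc3* was the more abundant in every library. A further 9 connexin genes were at 0 in all libraries, among them *Gjb6*, *Gja4* and *Gja5*.

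Among the 8 tested members the replicate series differed most in *Gjc3*. *Gjc3* was 3.0-, 3.33-, 1.68- and 1.62-fold higher in replicate 1 than in replicate 2 on Days 0 to 3, a log2 difference of −1.18 (SE 0.18, adjusted p 0.0239, limma with day in the model). It was the 1 member of 8 called between the replicate series (1.05% of all genes tested), and 2 had an unadjusted p under 0.05. *Ank2* was lower in replicate 2 on all 4 days as well (−0.37, SE 0.12, adjusted p 0.246, limma), and *Ank3* higher on all 4 (0.22, 0.457). The call held under the 3 other scalings (adjusted p 0.0213, 0.0447 and 0.00672, limma). It was lost with a pseudocount of 0.1 (0.0522), with no filter (0.101) and without the variance trend (0.111). It was also lost without either library of Day 0 (0.156 and 0.161), Day 1 (0.0799 and 0.0825) or Day 2 (0.0748 and 0.0758).

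The astrocyte connexin ran the other way. *Gja1* mRNA expression (FPKM) was 0 and 3.41 at Day 0, 0.263 and 3.78 at Day 1, 0 and 15.7 at Day 2, and 0.295 and 44.7 at Day 3. It was low in all replicate 1 libraries and higher in all of replicate 2, with no overlap between them (log2 difference 3.32, SE 0.51, adjusted p 0.0234, limma). *Gja1* passed the filter through replicate 2 libraries only, so this call restates how it was selected and decides nothing. The call was lost with no filter (0.103), without the variance trend (0.0848), without either library of Day 0 (0.0897 and 0.0929) or Day 2 (0.177 and 0.183), and without Day 3 replicate 2 (0.0563). Of the 7 astrocyte markers 4 were called higher in replicate 2, *Gfap* with a log2 difference of 3.55 (adjusted p 1.03e-05, limma). *Tubb3* was lower in replicate 2 (−1.15, adjusted p 0.00350, limma). Averaged over the days, all 5 OPC markers were lower and all 5 OL markers higher in replicate 2, though not on every day, and only *Pdgfra* (−1.81, adjusted p 0.0461) and *Mag* (0.69, 0.0425) were called by limma. Both lost the call with a pseudocount of 0.1, quantile normalization, no filter or no variance trend, *Pdgfra* also after median ratio scaling (0.0609). *Mag* lost it with any 1 library left out (0.0583 to 0.260) and *Pdgfra* without any 1 library of Day 1, Day 2 or Day 3 (0.164 to 0.276). Whether the lower *Gjc3* of replicate 2 goes with these marker differences was not tested.

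**Figure D4:**
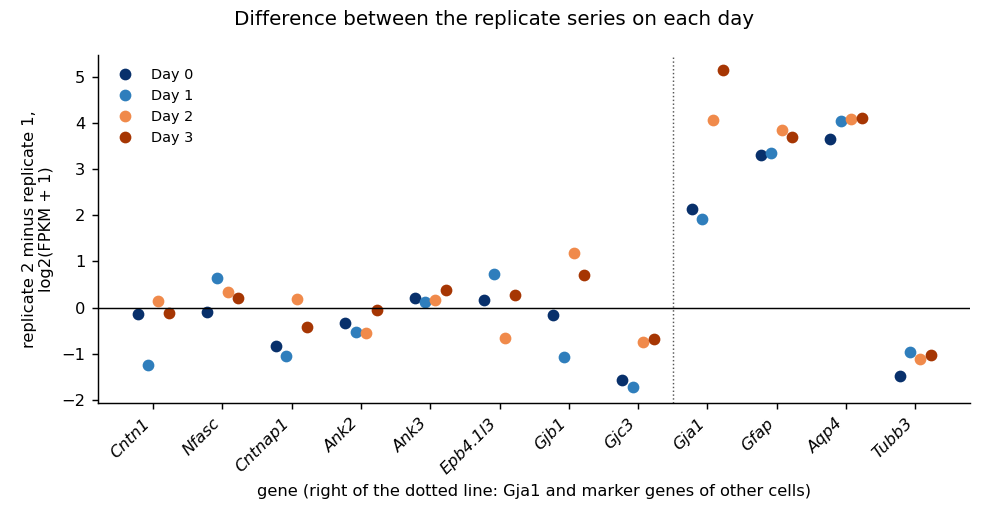
Log2 difference of replicate 2 minus replicate 1 on each day for the tested members and for *Gja1*, *Gfap*, *Aqp4* and *Tubb3*. *Gjc3* lay below 0 and *Gja1* above 0 on all 4 days.

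Genes with the most similar course over the n = 8 libraries are listed as a description, among 6482 genes with a mean of at least 10 FPKM. For *Nfasc* these were *Elavl3* (r = 0.997), *Pacs2* (0.996) and *Tprn* (0.995), and for *Ank3* *Clcn4-2* (0.997), *Nbas* (0.997) and *Grik2* (0.996). *Cntn1* went with *Lgals1* (0.984), *Naa40* (0.977) and *C2cd3* (0.976), *Cntnap1* with *Ogfr* (0.970), *Kat2a* (0.958) and *Uggt1* (0.953), and *Epb4.1l3* with *Mob1a* (0.964), *Sav1* (0.963) and *Ndufc1* (0.963). *Ank2* was close to *Rnd3* (0.967) and *Sema3d* (0.961). The connexin *Gjb1* was closest to *Trim59* (0.988), *Oxr1* (0.976) and *Atp10b* (0.968), and *Gjc3* to *Nol3* (0.974), *Tet3* (0.914) and *Tcp11l2* (0.913).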

How the data were processed

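The authors sequenced stranded mRNA libraries in read pairs, and the deposited table gives FPKM for 23427 genes in 8 libraries, aligned per the labels to mm10. Nothing states a further scaling between libraries or the gene model used. FPKM was taken as deposited and log2(FPKM + 1) was computed from it. The 12208 genes that reached FPKM 1 in 2 or more libraries were fitted by limma 3.58.1 under R 4.3.3 (eBayes with a trend). The 4 days were levels of a factor, and p was adjusted over these genes by the Benjamini-Hochberg method. The fit was tested on simulated data with noise drawn independently for each library and changes on Day 3 only. That simulation does not cover libraries of the same replicate number that deviate together. Slopes on day were compared by exact permutation over 2520 arrangements, or 576 within replicate numbers. With 2 against 2 libraries a permutation p cannot go under 0.333. Permutations, counts and ratios were computed in Python 3.11.15 (pandas 2.3.3, numpy 2.4.6, scipy 1.17.1), and figures were drawn using matplotlib 3.10.9.

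Depth was read from the spacing of low FPKM values over annotated lengths: 1530000, 1220000, 1220000, 1280000, 1220000, 1330000, 1090000 and 956000 fragments in the order of days and replicates. Of 5135 low genes examined 42.4% lay at whole fragments (within 0.02). Among members, whole fragments (within 0.06) were recovered for *Cntn2*, *Cntnap1*, *Epb4.1l3*, *Gjb1* and *Gjc3*, and not for *Cntn1*, *Nfasc*, *Ank2* and *Ank3*.

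Replicate numbers are those of the labels. Residuals of libraries with the same number, after removing day means, correlated on all 6 pairs of days (r 0.16 to 0.29), so a fit with the replicate number as a block was also made. The members and lists were chosen with earlier results of these data known. The text names all members, the 4 largest called changes of each list, all OPC and OL markers, the most abundant marker of other cells and those at 0, and genes among the 3 most similar to each member. *Dlg4*, *Gja1*, *Aldoc*, *Aqp4*, *Nefl*, *Nefm*, *Snap25* and the other genes named for their replicate differences were added after their values were seen. Alternatives were a pseudocount of 0.1, no filter (15267 genes), FPKM of at least 10 in 1 library (8202 genes), same-sum, median ratio and quantile scaling, the replicate block, eBayes with no trend, a fit of the compared days alone, and leaving out single libraries. Results that need a withheld item are not reported, and list counts and marker sums are without it. Annotation came from GENCODE M21 and RefSeq.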

Additional observations from a re-analysis of the deposited data

How the results depend on the processing

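Of 540 alternative values of the member fold changes 492 kept direction and call, 25 were weaker, 15 stronger and 8 reversed, all 8 with a library left out. Lowest and highest values with a library left out were −0.14 to 0.21 for *Ank2* from Day 0 to Day 3, −0.83 to 0.22 for *Cntnap1* from Day 0 to Day 1, −1.03 to 0.22 for *Cntn1* and −0.12 to 1.61 for *Gjc3* from Day 1 to Day 2, and −0.0946 to 0.33 for *Cntnap1*, −0.0769 to 0.48 for *Ank2* and −0.74 to 0.0102 for *Gjc3* from Day 2 to Day 3. *Cntnap1* was 0.11 without Day 0 replicate 1 and 0.22 without Day 1 replicate 2. Step values that moved by over 1.5 times with a library left out include *Epb4.1l3* to Day 1 (−1.09 to −0.36) and to Day 3 (0.46 to 1.13), *Ank2* to Day 1 (0.30 to 0.84) and to Day 2 (−1.02 to −0.46), *Ank3* (0.18 to 0.56) and *Nfasc* (0.07 to 0.40) to Day 3, and *Gjb1* to Day 2 (0.87 to 2.06) and to Day 3 (0.82 to 2.01). In these fits the lone library of a day is assumed to vary like the others.

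Members lower on Day 3 than on Day 0 (2) numbered 1 with no filter, same-sum scaling or no trend, 0 after median ratio or quantile scaling, and 0 to 2 with a library left out. Members higher on Day 3 stayed at 2 to 2 with a library left out. Members higher on Day 1 than on Day 0 (2) numbered 1 in a fit of only those days or with no trend, and 1 to 2 with a library left out; those lower (0) numbered 1 with the filter at 10 FPKM and 0 to 2. From Day 1 to Day 2 those higher (1) numbered 2 with that filter or median ratio scaling, 0 with only those days, and 0 to 1 with a library left out, and those lower (0) 0 to 1. The count by the F test (5) was 2 to 5 with a library left out and 4 to 7 under the other alternatives. That between replicate series (1) was 0 with a pseudocount of 0.1, no filter or no trend, and 0 to 1 with a library left out. The slope of *Gjb1* minus *Gjc3* was −0.0076 with same-sum and −0.0225 with median ratio scaling, 0.21 with a pseudocount of 0.1, 0.10 after quantile normalization, and −0.39 to 0.45 with a library left out. That of *Ank3* minus *Ank2* was 0.63 to 0.77. The cause of these shifts was not tested.

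With the replicate block, 3 members were higher (13.2% of all genes) and 2 lower (29.1%) on Day 3 than on Day 0. On Day 1 against Day 0 these were 3 (6.09%) and 2 (9.01%), and on Day 2 against Day 1, 2 (3.01%) and 1 (3.57%). By the F test 7 changed (41.0%). In the lists the block also changed the counts given with the results, and it changed no other call reported.

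There were only 2 libraries a day. FPKM from few fragments is uneven, so *Cntn2*, *Cntnap1* and *Gjb1* rest on few molecules, and isoforms were not told apart. The libraries are bulk RNA whose marker levels differ by replicate number, and whether a number marks a shared isolation is not stated. Direction for *Cntn1* and *Epb4.1l3* was kept by every scaling while their calls were not. *Cntnap1* has no value with the filter at 10 FPKM. Filter, trend and day subset do not apply to the slopes.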
